A study of Xenopus tropicalis with 84 samples.

Results

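*Xenopus tropicalis* embryos injected with an antisense morpholino against *nup107* were followed across the mid-blastula transition. The genes whose RNA rose or fell in them were determined from RNA-seq values deposited under the polyA+ name. The comparison set the 3 *nup107* MO libraries of 6.5, 7 and 7.5 hours post-fertilisation (hpf), called late below, against the 3 *nup107* MO libraries of 3.5, 4 and 4.5 hpf, called early. These are 6 of the 84 samples of the series and 6 of the 21 polyA+ libraries made from morphants. The libraries were picked by their hours, and earlier results of these data were known when the windows were chosen. All genes were examined.

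The whole study followed uninjected control (UIC) and *nup107* MO embryos every 0.5 h from 2 to 12 hpf, with 10 pooled embryos and 1 polyA+ and 1 rRNA-depleted library for each condition and time point. The embryos were siblings of the Nigerian strain kept at 25 °C in dilute MR medium, and whole embryos were lysed. *nup107* MO embryos had received 10 ng of a morpholino that covers the start of translation of *nup107*, a scaffold subunit of the nuclear pore. UIC embryos were not injected, and an effect of injection alone cannot be told apart from the morpholino's effect in any difference between the conditions. A morpholino of this kind acts on translation, and the *nup107* mRNA is therefore no measure of the depletion. Only 1 set of values per condition and time point could be used, because the deposited tables of the 2 library kinds held identical values. The 3 neighbouring time points of each window served as its replicates, so that every standard error holds both the noise between libraries and the change of a gene within the window.

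In the early amphibian embryo the first cleavages run on mRNA that the mother laid down in the egg. At the mid-blastula transition the cell cycle lengthens and the zygotic genome becomes active, and over the same hours many maternal mRNAs are cleared. The first zygotic genes include those of the Nodal, Wnt and Bmp pathways, which set up the germ layers and the dorsal organizer.

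Expression was given as TPM, the length-corrected share of each transcript, a scale on which all genes of a library add up to the same total and which keeps no record of sequencing depth. ERCC spike-in RNA took between 4.6% and 5.98% of the TPM in the morphant libraries. For each gene the late mean minus the early mean of log2(TPM + 1) was fitted with limma, with Benjamini-Hochberg adjustment over 15011 genes. "Rose" and "fell" are used of genes with an adjusted p under 0.05 and a difference of at least 1 on this scale. Below, 6 values for a gene are its TPM at 3.5, 4, 4.5, 6.5, 7 and 7.5 hpf in that order, and "log2 difference" is the late minus the early value in *nup107* MO embryos unless UIC is named. The added 1 makes the log2 difference of a gene with a low early level smaller than the logarithm of its fold change.

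In *nup107* MO embryos 895 genes rose between the windows, 5.96% of the genes tested, and 219 fell, 1.46%. Of the genes called, 80.3% had therefore risen. When libraries were scaled by the ERCC spike-ins, 1077 genes rose and 100 fell, so that 91.5% had risen. That scaling moved the median log2 difference of all genes from 0.02 to 0.18. In all 1114 called genes every late value lay beyond every early value, as it did for 26.1% of all tested genes upwards and for 17.7% downwards. A further 166 genes were higher by at least 1 and 182 lower by at least 1 without passing the adjusted p. Embryos of this age hold several cell types, and in whole embryos fewer cells of a type cannot be told apart from less RNA per cell.

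The number that rose moved less than the number that fell when single libraries were left out. Between 602 and 1167 genes rose when 1 of the 6 libraries was dropped. Of the 895 themselves, 605 remained called without the library of 3.5 hpf, 594 without 4 hpf, 738 without 4.5 hpf, 885 without 6.5 hpf, 602 without 7 hpf and 762 without 7.5 hpf. Among genes named below, *nodal1* and *ccnb3* remained called in 2 of these 6 fits, and *frzb*, *sia2* and *eef1a1* in 3. The number that fell was 22 without the library of 3.5 hpf, 23 without 4 hpf, 90 without 4.5 hpf, 649 without 6.5 hpf, 28 without 7 hpf and 101 without 7.5 hpf. With windows of 3 to 4 and 7 to 8 hpf it was 855. Values at 6.5 hpf lay between the other late libraries and the early ones for most falling genes, as 187 of the 219 genes declined step by step from 6.5 through 7 to 7.5 hpf. Likewise, 566 of the 895 that rose increased step by step over the same hours.

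The 12 largest rises among genes with a symbol included those of *foxa4*, *gs17*, *admp*, *lpar6*, *stx19*, *ventx2.1*, *atp1b2*, *atp12a*, *bix1.1*, *mix1* and *apela*. *foxa4*, a forkhead factor of the organizer and notochord, measured 0, 0 and 0.04 TPM in the early libraries and 96.8, 337 and 563 TPM in the late ones. Its log2 difference was 8.03 (SE 0.61, limma adjusted p = 0.0006), and in UIC embryos it was 7.86. *admp*, a Bmp-type ligand made by the organizer, had 0, 0 and 0.26 TPM early and 164, 216 and 195 TPM late, for a log2 difference of 7.47 (SE 0.16, limma adjusted p = 1.6e-05). *gs17*, known as an early zygotic transcript of *Xenopus*, measured 0.48, 0.09, 0, 159, 279 and 357 TPM. The early values of each lay near 0, while *foxa4* was still climbing at 7.5 hpf and *admp* was level across the late window.

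Several of these genes encode parts of the cell membrane or its signalling. *lpar6*, a receptor for lysophosphatidic acid, went from 0, 0.06 and 0 TPM to 94.7, 229 and 266 TPM. *atp1b2*, a beta subunit of the sodium pump, went from 0.21, 0.12 and 0.4 TPM to 67.2, 204 and 365 TPM, a log2 difference of 7.12. *atp12a*, the catalytic subunit of a proton/potassium pump, measured 0, 0 and 0.04 TPM early and 54.4, 169 and 273 TPM late. *stx19* encodes a SNARE protein of membrane fusion, and its log2 difference was 7.40. *apela* encodes a small secreted ligand of the apelin receptor and measured 0.04, 0 and 0 TPM early and 48.6, 136 and 203 TPM late. *aplnr*, the receptor itself and a gene named after its values were seen, measured 0.39, 0.17 and 0.19 TPM early and 21.5, 52.6 and 94.2 TPM late. All 12 of the genes with the largest rise remained called in every alternative analysis, with each of the 6 libraries left out in turn included. Their adjusted p lay between 1.6e-05 and 0.00085.

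**Figure D1:**
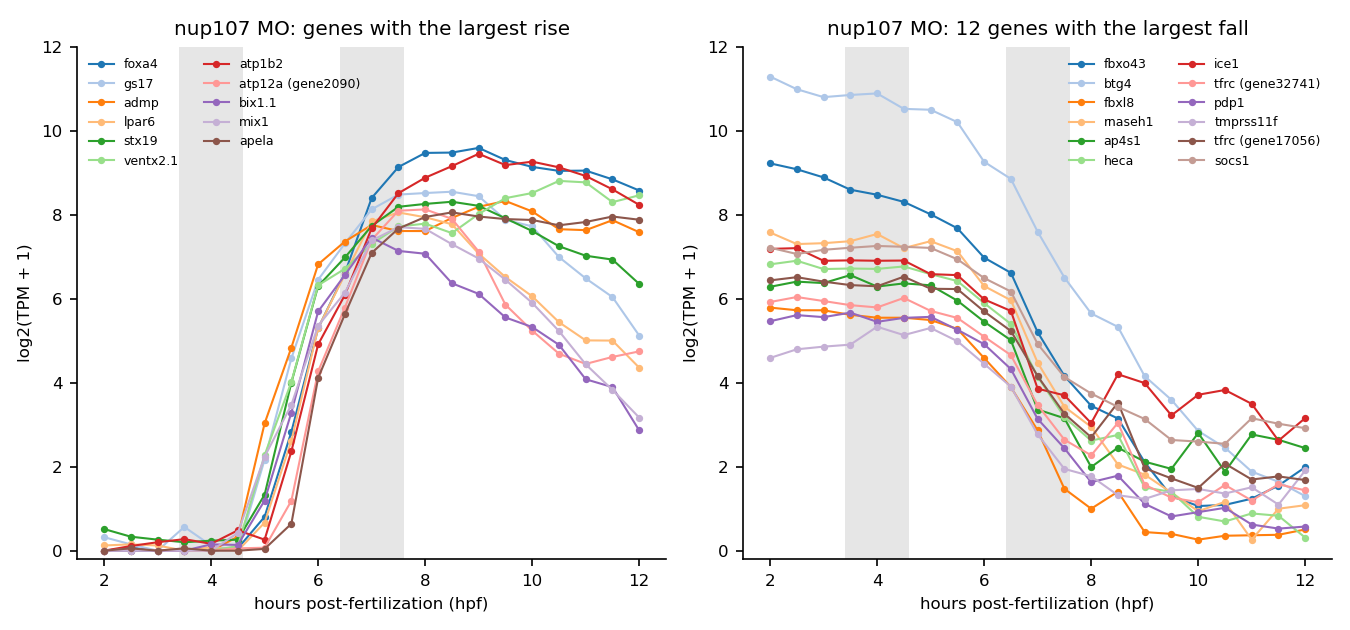
Level of genes with the largest rise and of the 12 with the largest fall in *nup107* MO embryos (y axis, log2(TPM + 1)) against time (x axis, hpf), 1 line per gene and 1 point per library, with grey bands over the early and the late window. The rising genes sit near 0 through 4.5 hpf and are all high by 6.5 hpf. The falling genes stay high through the early window and decline between the bands and within the late band.

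The genes that rose were of 2 kinds by their level at the start. Of the 895, 579 (64.7%) were at or below 0.4 TPM at 2, 2.5 and 3 hpf in *nup107* MO embryos, hours outside both windows, compared with 11.5% of all tested genes. These are called undetected at the start below. Genes of this kind entered the test through their later levels, so the share describes the set. Their median log2 difference was 2.63, with quartiles of 1.64 and 4.19, and their median level rose from 0.01 TPM early to 6.1 TPM late. Of the 579, 280 were listed at 0 in all 3 early libraries, 49 had passed 0.4 TPM by 4.5 hpf, and 35 exceeded 100 TPM late. The share undetected depended on the limit, with 452 genes at a limit of 0.1 TPM and 664 at 1 TPM.

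The other 316 were already detected at the start. Their median rose from 2.36 TPM early to 24.5 TPM late, and their median log2 difference was 1.81. Of them, 62 exceeded 100 TPM late. For these 316 genes new transcription cannot be told apart from a change in stored mRNA. Such a change could be a gained poly(A) tail, if the values are from polyA+ libraries as the table's name says. In that case a stored mRNA without a tail could also be missed at the start, so the same limit holds for the undetected genes.

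Together the undetected genes took up 0.0025%, 0.0041% and 0.0120% of all gene TPM in the 3 early morphant libraries and 1.07%, 1.58% and 1.87% in the late ones. At 12 hpf they held 2.93%. The genes detected at the start took up 0.747%, 0.786% and 0.9% early and 2.04%, 3.06% and 4.00% late, and reached 8.32% at 12 hpf. The 219 genes that fell went the other way, from 5.09%, 4.92% and 4.43% to 2.63%, 1.68% and 1.2%, and stood at 0.366% at 12 hpf. Thus the larger part of the gain in TPM came from genes with some mRNA present at the start, although they were fewer.

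Not all genes that rose stayed high. In *nup107* MO embryos 247 of the 895 peaked by 7.5 hpf, 500 peaked between 8 and 11.5 hpf and 148 were highest at 12 hpf. At 12 hpf 151 had returned to under 10% of their own highest value, and 126 of these had been undetected at the start. The gene with the largest rise of all, *LOC105946949*, was among them. It was listed at 0 in the 3 early libraries and at 1220.3, 1359.6 and 782 TPM late, and was back at 13.7 TPM at 12 hpf. It carries no name in the files and was picked after its values were seen.

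Nodal ligands are secreted factors of the TGF-beta family that induce endoderm and mesoderm. Of 18 genes of Nodal and Vg1-type signalling tested, 9 rose and none fell, beside 5.96% and 1.46% of all tested genes. Their median log2 difference was 2.02, against 0.02 for all genes. Here and in the lists below the counts cover only tested members. Members undetected at the start entered the test through their later levels. One of the rows named *nodal* measured 0, 1.06, 4.18, 142, 204 and 165 TPM. Its log2 difference was 6.26 (SE 0.57, limma adjusted p = 0.0013). *nodal2*, another ligand of the family, was listed at 0 in each early library and at 14.6, 47.8 and 55.2 TPM late. Reads can be shared between the near-identical *nodal* copies, so the split between single copies is uncertain. *nodal1*, *nodal5* and *nodal6* rose by 3.64, 3.71 and 4.33 on the log2 scale.

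Both an inhibitor and a co-ligand of Nodal moved with the ligands. *lefty*, a secreted antagonist induced by Nodal itself, had 0.25, 0.04 and 0.21 TPM early and 32.8, 66.8 and 68.1 TPM late. *gdf3*, a TGF-beta ligand, was present before activation at 6.44, 7.66 and 9.66 TPM and reached 163, 241 and 253 TPM, a log2 difference of 4.61. Maternal components behaved differently. *gdf1*, the maternal Vg1 ligand, measured 179, 163, 168, 165, 159.8 and 142 TPM and was not called. *foxh1*, the DNA-binding partner of Smad proteins, measured 178, 126, 131, 122, 87.4 and 58.5 TPM, with a log2 difference of -0.74 that did not pass.

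Wnt targets and organizer genes formed the list with the largest count. Of 25 tested, 17 rose and none fell, beside 5.96% and 1.46% of all tested genes. Their median log2 difference was 3.34. *sia1* and *sia2*, homeobox genes that are direct targets of maternal beta-catenin, rose to low levels. *sia1* measured 0, 0 and 0.31 TPM early and 10.5, 15.2 and 13.5 TPM late. *sia2* measured 0.06, 0.69 and 3.82 TPM early and 23.7, 16.6 and 8.48 TPM late, so that its late values were already declining. The homeobox gene *gsc* was listed at 0 in all early libraries and at 26.5, 87.9 and 147 TPM late. Its log2 difference was 6.15 (SE 0.59, limma adjusted p = 0.0015). The secreted Bmp antagonist *chrd* went from 0.02, 0.02 and 0 TPM to 30.9, 83 and 114 TPM, and *nog*, another Bmp antagonist, had a log2 difference of 5.19. *frzb*, a secreted Wnt antagonist, rose by 5.39 on the log2 scale.

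Some organizer genes missed the threshold with late values that spread widely. *cer1*, a secreted antagonist of Nodal, Bmp and Wnt, was listed at 0 in every early library and at 0.98, 18.4 and 76.3 TPM late, for a log2 difference of 3.85 and a limma adjusted p of 0.082. *otx2* and *hhex*, homeobox genes of the anterior embryo, gave 3.62 and 2.38 with adjusted p of 0.052 and 0.084 from the same test. In all of them each late value was above each early one, as it was for 26.1% of all tested genes. *ctnnb1*, which encodes beta-catenin and is maternal, measured 986, 942, 1072, 1204, 1337 and 1496 TPM. Its log2 difference of 0.42 passed the adjusted p (0.042, limma) but not the size asked of a call.

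Of 24 mesoderm genes 13 rose and none fell, beside 5.96% and 1.46% of all tested genes. Their median log2 difference was 2.15. *t*, the T-box gene brachyury, was listed at 0 in each early library and at 12.43, 56.5 and 125 TPM late. Its log2 difference was 5.53 (SE 0.77, limma adjusted p = 0.0077). *eomes*, a T-box factor of mesendoderm, was listed at 0 early and at 34.9, 74.4 and 95.1 TPM late. The growth factor *fgf8* was listed at 0 early and at 32.8, 59.3 and 58.6 TPM late, and the related *fgf20* and the Fgf-induced phosphatase *dusp6* had log2 differences of 2.97 and 3.19. The zinc-finger repressor *snai1* had maternal mRNA and went from 15.1, 13.1 and 12.6 TPM to 52.6, 78.6 and 88.3 TPM. *vegt*, a maternal T-box activator, measured 470.1, 402, 511, 576, 823 and 989 TPM and was not called (log2 difference 0.76, limma adjusted p = 0.057). The muscle genes *myf5*, *myod1* and *actc1* were not called at these hours.

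Endoderm genes gave the highest median of all the lists, 4.04, with 7 of 14 rising and none falling. Over all tested genes 5.96% rose and 1.46% fell. The list named 19 genes, and 10 of the 14 tested were undetected at the start. *mixer*, a homeobox gene induced by Nodal, measured 0, 0, 0.05, 32.6, 77.8 and 119 TPM. *mix1*, a related homeobox gene, measured 0, 0, 0.34, 69.9, 167 and 208 TPM, a log2 difference of 6.94 (SE 0.41, limma adjusted p = 0.00022). *sox17a*, an HMG-box factor that specifies endoderm, went from 0.07, 0.06 and 0.8 TPM to 15.9, 51.2 and 81.4 TPM. *gata4* and *gata6*, zinc-finger factors of endoderm and heart, had log2 differences of 2.95 and 1.69 that did not pass, with limma adjusted p of 0.094 and 0.069.

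Ventral and Bmp genes were split between a strong group and a flat one. Of 22 tested, 9 rose and none fell, beside 5.96% and 1.46% of all tested genes. The median log2 difference was 0.85. The ligand *bmp4* went from 1.66, 1.34 and 1.43 TPM to 46.7, 72.2 and 91.5 TPM, 47.5-fold between the mean TPM. *id3*, an HLH protein induced by Bmp, went from 24.2, 28.6 and 32.4 TPM to 507, 961 and 1243 TPM, 31.8-fold. *ventx1.1* and *ventx2.2*, homeobox repressors that act downstream of Bmp, had log2 differences of 6.26 and 6.60. *szl*, a secreted regulator of Chordin breakdown, measured 0, 0, 0.14, 7.35, 12.7 and 20.9 TPM. *bambi*, a Bmp pseudoreceptor, was at -0.39 and *gata2*, a blood and ventral factor, at 2.35, neither called.

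Among 30 genes of ectoderm and neural plate 13 rose and none fell, beside 5.96% and 1.46% of all tested genes. Their median log2 difference was 0.60. The epidermal regulator *grhl3* went from 0.31, 0.48 and 0.36 TPM to 54.5, 129.9 and 192 TPM. *krt*, a keratin gene, was listed at 0 early and at 17.7, 110.0 and 258 TPM late, and reached 3649.5 TPM at 12 hpf. *tfap2a*, an AP-2 factor of epidermis and neural crest, measured 0, 0.03, 0, 33.1, 54.9 and 75.3 TPM. On the neural side, *sox2* went from 0.36, 0.29 and 0.27 TPM to 34.3, 56.9 and 90.6 TPM, and the LIM-homeobox gene *lhx5* was listed at 0 early and at 43.4, 99 and 165 TPM late. *foxd4l1.1*, an early neural plate factor, had a log2 difference of 6.53. *sox3*, which is maternal, was at 0.10 and was not called.

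The maternal activators themselves did not move as a group. Of 22 pluripotency genes and maternal activators 2 rose and 1 fell, beside 5.96% and 1.46% of all tested genes. These are too few genes to set a count against the shares. Their median of -0.14 became 0.06 when libraries were scaled by ERCC. Both rises were *pou5f3* genes, the frog counterparts of mammalian *Oct4*. *pou5f3.1* was listed at 0 early and at 22.1, 44.4 and 73.5 TPM late, whereas *pou5f3.2* was maternal and went from 48.4, 41.1 and 42.5 TPM to 95.9, 118 and 145 TPM. *pou5f3.3*, a maternal gene of the family, had a log2 difference of -0.04. The gene that fell was *tbpl2*, an oocyte relative of the TATA-binding protein, from 44.8, 48.3 and 44.7 TPM to 19.6, 10.8 and 5.44 TPM (log2 difference -2.02, SE 0.40, limma adjusted p = 0.025). *tbp* itself was at -0.78 and did not pass.

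**Figure D2:**
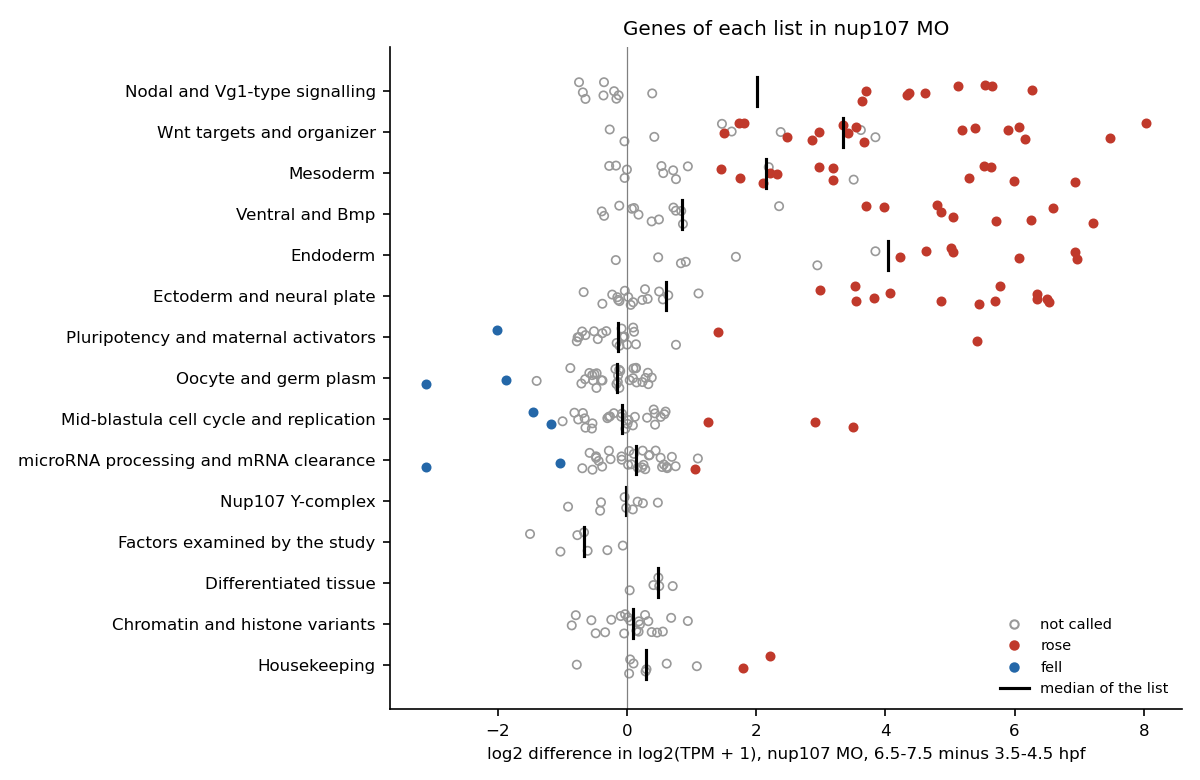
Late minus early log2(TPM + 1) in *nup107* MO embryos (x axis) for each tested gene of the gene lists named on the y axis, with genes that rose in red, genes that fell in blue, genes not called as open points and the median of each list as a bar. The signalling and germ layer lists reach far to the right, with medians from 0.60 to 4.04. The lists of maternal activators and of oocyte, cell cycle and pore genes are centred near 0. The 7 factors examined by the study have a median of -0.66.

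A small part of the genes that rose lay beside each other. When the tested genes were put in the order in which RefSeq lists them along the genome, which placed 12529 of the 15011, there were 6 runs of 4 or more consecutive tested genes that all rose and none of that length that all fell. The runs held 52 of the 586 rising genes that could be placed, and whether this is more than the order of genes alone would give was not tested. These runs were looked for after the calls were known, and genes of a run can share reads because many are close copies. The longest held 21 genes, from *MGC146893* to *LOC101731727*. Zinc-finger names are carried by 5 of them, *znf3*, *znf665*, *znf33b*, *znf350* and *znf33a*, and 15 have only a locus number. The others were a run of 12 genes that contained *prdm9* and *znf585b*, the 6 *ventx* genes from *ventx3.2* to *ventx2.1*, 5 genes ending in *nodal2* and *nodal1*, 4 genes starting with *mixer*, *mix1* and *bix1.1*, and 4 genes from *nodal5* to *nodal6*.

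The run of 21 genes rose early and was transient, and it held 21 of the 47 placed genes that had passed the midpoint of their rise by 5.5 hpf. The log2 differences ran from 1.14 to 6.50 with a median of 5.24, and 12 of the genes were undetected at the start. Their summed level in *nup107* MO embryos was 54.2 TPM at 2 hpf and 81.6, 102 and 157 TPM in the early libraries. It was 570.0 TPM at 5 hpf, 1607 TPM at 5.5 hpf and 2173 TPM at 6 hpf. The late libraries had 2317, 1980.4 and 1629 TPM, already in decline, and 56.2 TPM remained at 12 hpf, when no gene of the run exceeded 8.53% of its own maximum. *prdm9*, of the second run, was listed at 0 early and at 19.6, 19.5 and 17.6 TPM late, and 0.27 TPM remained at 12 hpf. In mammals *prdm9* encodes a zinc-finger methyltransferase of meiotic recombination. In UIC embryos the sum of the 21 genes was 82.7, 87.2 and 123 TPM early, 426 TPM at 5 hpf, 1648 TPM at 5.5 hpf, and 2235, 2170.4 and 1738 TPM late. At 6 hpf the UIC sum was 2282 TPM. The morphant sum was thus higher at 4, 4.5, 5 and 6.5 hpf and lower at 3.5, 5.5, 6, 7 and 7.5 hpf. All 21 rose in UIC as well. The morphant change was the smaller in 18 of the 21, with a median difference of -0.30, against -0.04 over all tested genes. For none did the difference reach an unadjusted p of 0.05 (limma, without the time point as a block). Deviations that same-time libraries shared stay in the standard errors of that fit, and genes that share reads are not independent. The median level of the 21 genes at 4.5 hpf was 3.06 TPM in morphants and 1.29 TPM in UIC embryos. In the late libraries the medians were 96.1, 91.1 and 67.1 TPM in morphants and 100.1, 104.6 and 77.8 TPM in UIC embryos. How far each window set the smaller morphant change was not tested.

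**Figure D3:**
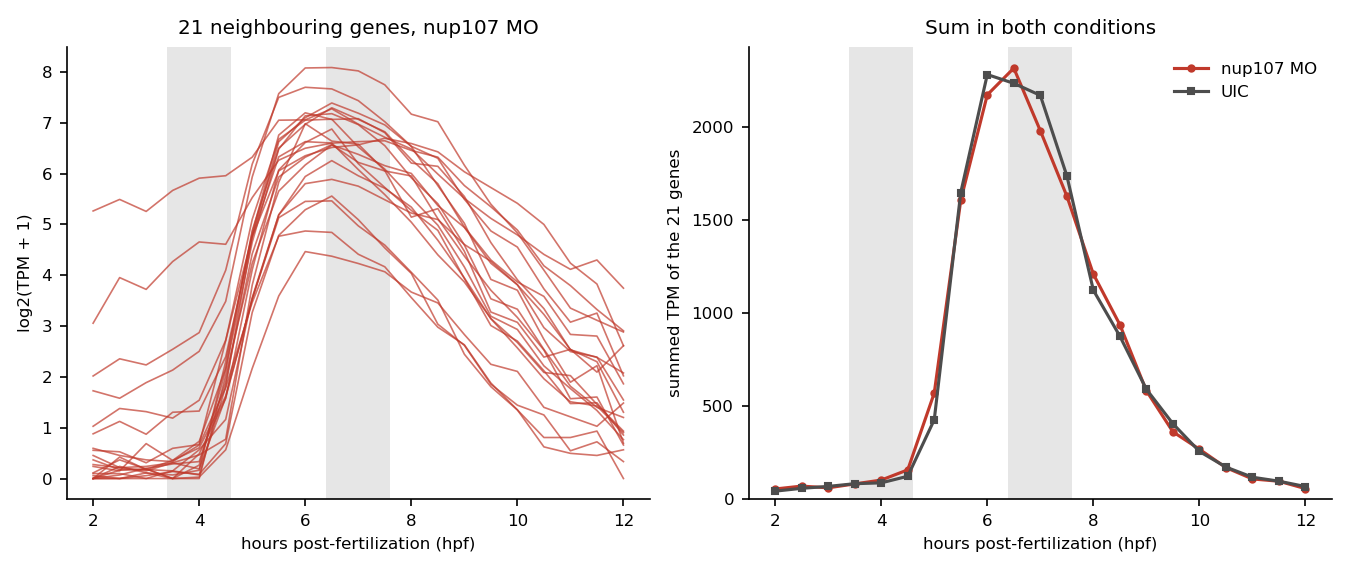
The run of 21 neighbouring genes, with log2(TPM + 1) of each gene in *nup107* MO embryos against time in hpf in the first panel, and the summed TPM of the 21 genes in *nup107* MO and UIC embryos in the second. The sum climbs from 157 TPM at 4.5 hpf to 1607 TPM at 5.5 hpf in morphants, with 1648 TPM in UIC embryos at that time, and the morphant sum is back at 56.2 TPM at 12 hpf.

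The transcripts that fell in *nup107* MO embryos were mostly more abundant early than other tested genes. For them decay cannot be told apart from a shortened poly(A) tail, if the values are from polyA+ libraries. The 219 genes that fell had a median of 62.3 TPM early and of 23.6 TPM late, against a median of 17.7 TPM early for all tested genes. Of the 219, 80 exceeded 100 TPM early, 23 were under 10 TPM, and all were detected at the start, which the size of drop asked of a call favours. Their median log2 difference was -1.32. The decline went on after the late window: at 12 hpf the median gene stood at 10.7% of its early mean, 106 genes were below 10%, and 33 were above their late mean again.

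Among genes with a symbol the largest falls were those of *fbxo43*, *btg4*, *fbxl8*, *rnaseh1*, *ap4s1*, *heca*, *ice1*, 2 rows named *tfrc*, *pdp1*, *tmprss11f* and *socs1*. *fbxo43*, whose product holds the egg in meiotic arrest by inhibiting the anaphase-promoting complex, measured 387, 356 and 316 TPM early and 97.3, 35.9 and 16.9 TPM late. Its log2 difference was -3.13 (SE 0.58, limma adjusted p = 0.021). *btg4*, known in mouse as an adaptor that recruits the deadenylase to maternal mRNA, was far more abundant, at 1854, 1902 and 1473 TPM early and 463, 193 and 90.0 TPM late. Its mean was 7.01-fold lower late (log2 difference -3.10, SE 0.56, limma adjusted p = 0.019), and 1.46 TPM remained at 12 hpf. Both fell steadily through the late window.

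Others of this group serve ordinary cell functions. *rnaseh1*, the nuclease that removes RNA from RNA-DNA hybrids, went from 165, 186 and 147 TPM to 61.5, 21.3 and 9.77 TPM. *socs1*, a suppressor of cytokine signalling, went from 148, 152 and 150.1 TPM to 71.2, 29.4 and 16.6 TPM. *ice1*, a subunit of a complex for small nuclear RNA transcription, went from 119.8, 119 and 119 TPM to 51.4, 13.5 and 12 TPM. In UIC embryos it started lower, at 46.9, 43.9 and 62.5 TPM, and ended at 21.2, 18.2 and 12.6 TPM, a log2 difference of -1.52 against -2.49 in morphants (limma, unadjusted p of the difference = 0.15). *pdp1*, a phosphatase that activates pyruvate dehydrogenase, and *tfrc*, the transferrin receptor, had log2 differences of -2.25 for *pdp1* and of -2.30 and -2.17 for the 2 rows of *tfrc*. The group rested on few libraries. None of the 12 remained called without the library of 3.5, 4 or 7 hpf, 1 remained without 4.5 hpf, 9 without 7.5 hpf, and all 12 without 6.5 hpf. The adjusted p of the 12 lay between 0.019 and 0.035.

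Some falls outside that group follow, and the genes named here were chosen after their values were seen. *plbd2*, a phospholipase B-like lysosomal protein, stood at 158 TPM at 2 hpf, at 84.5, 67.9 and 54.9 TPM in the early libraries and at 16.9, 17 and 16.1 TPM late. Its late window was level (log2 difference -1.96, SE 0.16, limma adjusted p = 0.00074). *cks2*, a small subunit of cyclin-dependent kinases, went from 872, 776 and 512 TPM to 274, 189 and 175 TPM. An abundant gene without a name, *LOC394448*, was at 1373, 1379 and 1282 TPM early and 331, 93.3 and 39.2 TPM late. *LOC100496129* had the largest negative difference of the called genes, -5.70, but erratic early values of 23, 115 and 49 TPM. It was listed at 0 in the 3 late libraries, and in UIC embryos at 0, 0.01 and 85.4 TPM early and at 0 late.

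Cell cycle genes moved in both directions. Of 31 genes of the mid-blastula cell cycle and replication 3 rose and 2 fell, beside 5.96% and 1.46% of all tested genes. Their median of -0.08 became 0.12 with ERCC scaling, under which neither fall was called. *ccna1*, the embryonic cyclin A, went from 2701, 2583 and 2997 TPM to 1659.5, 986 and 628 TPM (log2 difference -1.45, SE 0.34, limma adjusted p = 0.039). *dbf4b*, an activator of the replication kinase Cdc7, fell from 62.7, 56.3 and 51.7 TPM to 38.5, 23.8 and 15.9 TPM. In the opposite direction *ccne2*, a cyclin E, went from 67.8, 67.9 and 64.4 TPM to 258, 580.2 and 866 TPM, 8.52-fold. *ccnb3* went from 88.2, 112 and 150.2 TPM to 231, 269 and 325 TPM, and *cdc25b*, a phosphatase that activates cyclin-dependent kinases, from 1.03, 0.66 and 0.49 TPM to 15.3, 18.4 and 22.1 TPM. *ccnb1*, *chek1*, *wee2* and *cdc25a*, regulators of mitotic entry, had log2 differences of -0.81, -0.53, -0.65 and -0.75, none of them called. The list does not hold every gene of this kind, and others were called in both directions. Named after their values were seen, *cdc7* and *cdc45* fell (log2 differences -1.53 and -1.24) and *pcna* rose (1.03). With 1 of the 6 libraries left out, *cdc7* remained called in 1 fit, *cdc45* in 2 and *pcna* in 4.

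Few genes of the clearance machinery and of the oocyte list were called, but the summed TPM of both lists was lower late. The clearance list summed to between 4346 and 4536 TPM in the early libraries and between 3020 and 3520 TPM in the late ones. The oocyte list went from between 9368 and 9700 TPM to between 4581 and 7175 TPM. Both sums include *btg4*, whose mean went from 1743 to 249 TPM. Of 34 genes of microRNA processing and mRNA clearance 1 rose and 2 fell, beside 5.96% and 1.46% of all tested genes, with a median of 0.14. The falls were *btg4* and *tnrc6a*, a partner of Argonaute, the latter with a log2 difference of -1.03, and the rise was *zfp36l2*, an RNA-binding protein of mRNA decay, at 1.06. *dicer1* and *drosha*, the nucleases of microRNA processing, were at -0.08 and -0.58. Of 32 oocyte and germ plasm genes none rose and 2 fell, again with *btg4* and with *cpeb1*, a regulator of cytoplasmic polyadenylation, which went from 147, 128 and 155 TPM to 81, 34.6 and 19.7 TPM. Their median was -0.15, and 0.04 with ERCC scaling. The germ plasm gene *dazl* was at -0.10. Of the 6 list members that fell only *btg4* and *tbpl2* remained called under ERCC scaling, and none remained without the library of 3.5, 4 or 7 hpf.

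No gene of the Y-complex, the pore scaffold to which *nup107* belongs, was called among 9 tested. Over all tested genes 5.96% rose and 1.46% fell, and 9 genes are too few to set a count against these shares. The median of the 9 was -0.01 (0.18 with ERCC scaling). *nup107* mRNA itself measured 212, 209.8, 226, 227, 209.9 and 195 TPM in morphants and 199, 216, 212, 197, 172 and 126 TPM in UIC embryos. The morphant change minus the UIC change of *nup107* was 0.32 (limma) with an unadjusted p of 0.11.

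The study singled out 7 regulators among maternal transcripts that were high in morphants, so that they are no independent evidence of a direction. None was called here, and their median was -0.66 in *nup107* MO against 0.18 in UIC embryos. *rest*, a repressor of neuronal genes, measured 65.5, 68.6, 72.2, 65.3, 36 and 38.1 TPM in morphants and 28.1, 25.7, 41, 38.7, 37.5 and 30.1 TPM in UIC embryos. The morphant values were above every UIC value through 6.5 hpf and lay within the UIC range at 7 and 7.5 hpf. The difference in the change was -0.79 (limma, unadjusted p = 0.032), which did not pass adjustment. *arid4b*, a chromatin regulator, had a log2 difference of -1.5 in morphants with an adjusted p of 0.087.

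Of 20 genes of stress and growth arrest 3 rose and none fell, beside 5.96% and 1.46% of all tested genes. Their median log2 difference was 0.23, and in UIC embryos 2 rose. *gadd45a*, a growth arrest gene, went from 7.06, 6 and 4.81 TPM to 64, 126 and 174 TPM, and *gadd45g* and the stress factor *atf3* had log2 differences of 4.77 and 1.2. *gadd45a* and *gadd45g* rose in UIC embryos too, and *atf3* rose in morphants by 0.46 more than in UIC embryos (limma, unadjusted p = 0.021). No gene of the differentiated tissue list was called among 5 tested, nor any of 22 chromatin and histone variant genes, whose median was 0.10. The latter list does not hold every gene of its kind, and histone genes outside it were called in both directions.

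Of 10 housekeeping genes 2 rose and none fell, beside 5.96% and 1.46% of all tested genes. The 10 genes are too few to set a count against these shares. *actb* went from 49.7, 57.4 and 75.7 TPM to 215, 291 and 357 TPM, and the elongation factor *eef1a1* from 411, 468 and 621 TPM to 1108, 1763 and 2551 TPM, whereas *gapdh* and *odc1* were at 0.05 and 0.29. The related *eef1a1o*, named after its values were seen, reached 13954 TPM at 12 hpf from 566, 615 and 780.0 TPM in the early libraries.

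The hour of each change was read as the first of the 9 times from 3.5 to 7.5 hpf at which a gene had passed the midpoint between its early and its late mean and stayed past it. Nearly all genes passed the midpoint after the early window, as the choice of windows favours. Only the place of this time among the later hours therefore carries information. For many rising genes the midpoint time lay within the late window, at 6.5 or 7 hpf. In *nup107* MO embryos the median midpoint time was 6.5 hpf both for rising genes undetected at the start and for those detected, and 6 hpf for genes that fell. Of the undetected genes 1 passed the midpoint at 5 hpf, 35 at 5.5 hpf, 166 at 6 hpf, 188 at 6.5 hpf and 172 at 7 hpf. Of the falling genes 110 passed it at 6 hpf and 61 at 6.5 hpf. Of all risers 60 passed it by 5.5 hpf, and the run of 21 neighbours passed it at 5.5 hpf in every member.

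UIC embryos had medians of 6.5, 6.5 and 6 hpf too, but the genes were spread differently around them. Of the undetected risers 92 passed the midpoint at 6 hpf in UIC embryos, 280 at 6.5 hpf and 139 at 7 hpf. Of 554 undetected risers with a midpoint time in both conditions 352 had the same one, 111 were earlier in morphants and 91 later. Of 313 detected risers 201 were the same, 54 earlier and 58 later. Of 218 falling genes 93 were the same, 77 were earlier in morphants and 48 later. All these genes were called on their morphant values, so that the splits are not an even comparison. A call favours genes whose morphant change was complete by the late window. Among the falling genes 23 had a midpoint at 7 hpf and 2 at 7.5 hpf in UIC embryos, and none did in morphants. Differences of more than 1 sampling step of 0.5 h were rare, with 14, 5 and 31 genes. Single libraries spaced by 0.5 h set these times, so that a shift of a whole group by 1 step can come from 1 library.

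**Figure D4:**
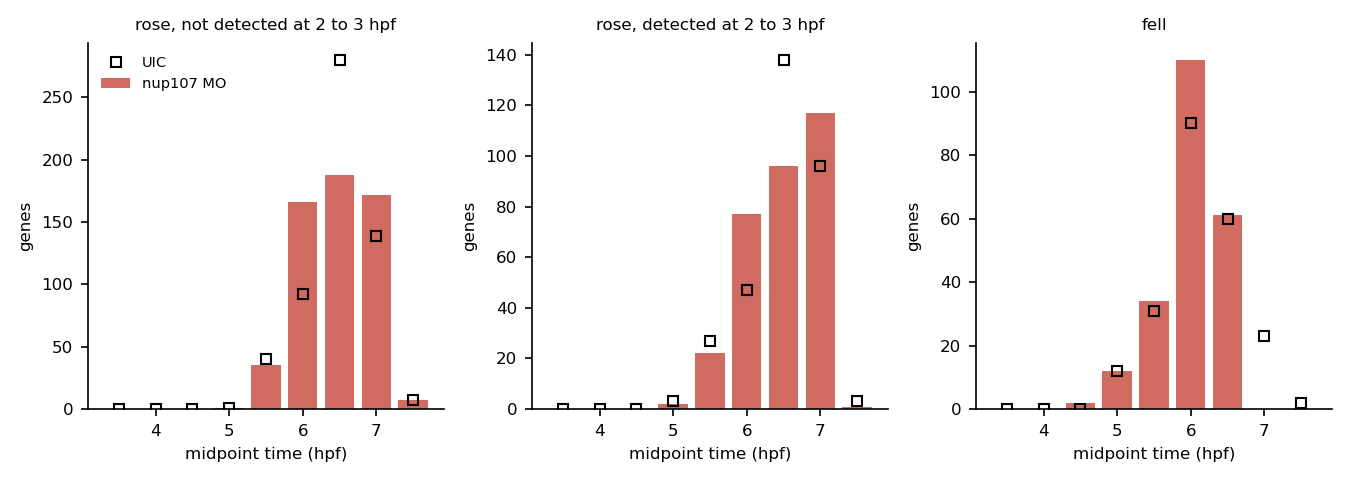
Number of called genes (y axis) by midpoint time (x axis, hpf), as bars for *nup107* MO and squares for UIC embryos, for rising genes undetected at the start, rising genes detected at the start and falling genes. The largest morphant bars are 188 genes at 6.5 hpf for undetected risers, 117 at 7 hpf for detected risers and 110 at 6 hpf for falling genes.

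The same contrast in UIC embryos called 945 rising genes (6.3% of those tested) and 194 falling genes (1.29%). Of the genes that rose in morphants 90.8% also rose in UIC embryos, which was 86.0% of the UIC set. Of those that fell in morphants 67.1% also fell in UIC embryos, 75.8% of that set. No gene was called in opposite directions. All 895 rising genes had a positive difference in UIC embryos and 217 of 219 falling genes a negative one. The median log2 difference of the risers was 2.23 in *nup107* MO and 2.22 in UIC embryos, and that of the fallers was -1.32 and -1.21. The genes were chosen on their morphant values, so that these medians are not an even comparison.

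The difference between the conditions was then tested directly, as the morphant change minus the UIC change. No gene of 15011 passed an adjusted p of 0.05 (limma, 0% called), and the smallest adjusted p was 1. At an unadjusted p under 0.05 there were 347 genes, 2.31% of those tested. With the time point, at which sibling UIC and morphant embryos were collected together, as a block, there were 1641 genes, 10.9%, and again none passed adjustment. Fits with other settings also gave 0, apart from the fit without a filter on low values, with 1 gene higher and 1 lower. Every interaction p-value of a single gene in this text is from the fit without the block, and the precision of that fit was limited. The median difference over the risers was 0.04 with a median standard error of 0.37, and over the fallers -0.17 with 0.39 on the log2 scale. A p that misses the threshold does not show that the conditions were alike.

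The genes with a symbol and the smallest unadjusted p in each direction follow. *spag1*, an assembly factor of ciliary dynein, measured 79.4, 72.1, 77.5, 84.2, 89.7 and 91.4 TPM in morphants and 86.5, 87.2, 85, 81.5, 80.7 and 79.9 TPM in UIC embryos, an excess of 0.30 (limma, unadjusted p = 0.0024). *b2m*, the light chain of MHC class I, measured 9.1, 9.34, 9.29, 5, 3.21 and 4.89 TPM in morphants and 6.94, 7.36, 6.98, 9, 5.98 and 6.45 TPM in UIC embryos. Its change was lower in morphants by 0.94 on the log2 scale (difference -0.94, limma, unadjusted p = 0.0025). The others higher in morphants by the same ranking were *inhbc.2* (0.57), *ccni2* (0.34), *tmem108* (0.90), *dusp12* (0.26) and *hcar2* (0.33). Those lower were *scpep1* (-1.31), *hspa1b* (-0.54), *pcbd2* (-0.81), *ttf2* (-1.17) and *rap1gap* (-0.65). Among the genes that rose in morphants, the unnamed gene11566, picked after its values were seen, was listed at 0 in every early library of both conditions and had 1.02, 1.84 and 1.37 TPM late in morphants and 4.65, 3.3 and 3.88 TPM in UIC embryos (difference -1.04, limma, unadjusted p = 0.00017).

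**Figure D5:**
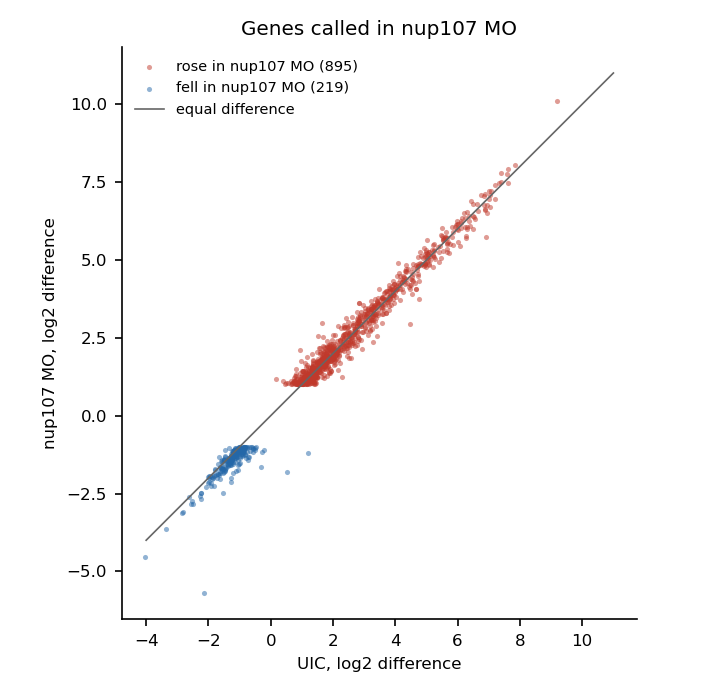
Late minus early log2(TPM + 1) of each gene called in *nup107* MO embryos (y axis) against the same difference in UIC embryos (x axis), with the line of equality. The 895 genes that rose and the 219 that fell lie along the line, and 2 of the falling genes have a positive difference in UIC embryos.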

How the data were processed

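Values deposited under the name of the polyA+ RNA-seq libraries of *nup107* MO and UIC embryos were used, for 42 libraries in all. The authors aligned reads with STAR to the Xt9.1 *X. tropicalis* gene models with ERCC sequences and deposited TPM values from RSEM. The table deposited under the rRNA-depleted name held identical values, so the table was used once, by its polyA+ name, and which library kind the values came from could not be settled. Genes with over 0.4 TPM at 6 consecutive time points of either condition were kept (15011 of 34192), and 92 ERCC rows were left out of tests. Differences of log2(TPM + 1) were fitted with limma 3.58.1 (R 4.3.3, trended empirical Bayes) on the 6 morphant libraries; the difference between conditions was fitted on 12. The fits were tested on simulated data. TPM keep no depth, so no counting interval could be given. Named genes were the 12 largest differences in each direction among called genes with a symbol and no overlap of the windows, the 6 smallest interaction p-values in each direction, and members of 16 lists; 35 more were named after their values were seen. The windows, lists and rules were chosen with earlier results of these data known. Gene order came from RefSeq, with names only. Some genes are not reported here, and 1 list is not plotted.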

Additional observations from a re-analysis of the deposited data

Results flagged for a closer look

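For 2 of the named genes every late library lay above every early library in 1 condition and below in the other, and the unadjusted interaction p was under 0.05. *spag1* had a log2 difference of 0.21 in *nup107* MO and of -0.09 in UIC embryos, a difference of 0.30 (limma interaction, unadjusted p = 0.0024, adjusted p = 1). The unnamed gene3505 measured 2.34, 2.11, 1.33, 0.82, 0 and 0.07 TPM in *nup107* MO and 0, 0.57, 0.54, 2.84, 3.72 and 0.61 TPM in UIC embryos, a difference of -2.41 on the log2 scale (limma interaction, unadjusted p = 0.0012, adjusted p = 1). Neither passed adjustment. Among all tested genes 17 were separated in opposite directions in the 2 conditions.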

How the results depend on the processing

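The number of genes that rose, 895, became 486 with a pseudocount of 5, 456 with a mean of at least 5 TPM required and 1734 with no minimum difference, and ranged from 602 to 1167 when 1 library was left out. The number that fell, 219, became 100 with ERCC scaling, 855 with windows of 3 to 4 and 7 to 8 hpf and 655 with no minimum difference, and ranged from 22 to 649 when 1 library was left out. Other settings kept both counts within 1.5 times, except where given here. No result changed direction when called. The interaction gave 0 genes, and 1 higher and 1 lower without a filter on low values. With the time point as a replicate block it gave 0 called and 1641 at an unadjusted p under 0.05. The deviations of same-time libraries of the 2 conditions correlated at 0.278, -0.143, 0.394, 0.709, 0.086 and 0.805. The pairing by time was therefore strong at 6.5 and 7.5 hpf and weak or absent at other times. The block was run only as an alternative, and no p-value of a single gene is given from it. The fit without the block does not remove deviations that same-time libraries shared, and they stay in its standard errors. TPM hold no depth, and what depth limits is not known.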
